A study of Mus musculus with 18 samples.

Results

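Deletion of Baf53a was compared with its ethanol control in mouse embryonic stem (ES) cells by ATAC-seq, in which a transposase cuts and tags open DNA so that accessible sites appear as peaks. The comparison holds 4 of the 18 libraries of the series: 2 titled Baf53a fl/- with ethanol and 2 titled Baf53a fl/- with tamoxifen. All 4 come from a conditional line with an Actin-CreER transgene, a Cre recombinase that tamoxifen switches on. Cells of the deletion group received 0.8 µM tamoxifen for 24 h and grew without it for 48 h, and control cells received ethanol on the same schedule. Both groups start with 1 Baf53a allele already missing, so that the control is a heterozygote. Tamoxifen exposure and the deletion go together in this design and cannot be told apart. Names inside the deposited lists write the line as flfl, whereas the titles and the genotype labels give fl/-, and the labels are followed here. Cells were grown in serum with LIF, and viable cells were sorted before the assay. The 2 libraries of a group are passages of 1 line, so a p-value here covers variation among passages, not among lines.

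BAF53a, encoded by Actl6a, is an actin-related protein. It belongs to the BAF (mammalian SWI/SNF) remodelling complex, which uses the ATPase BRG1 in ES cells to slide or evict nucleosomes, and it is also found in the TIP60 and INO80 complexes. BAF opens many distal regulatory sites in ES cells, and loss of its subunits is known to impair their self-renewal. The study set BAF beside topoisomerase II. Its other libraries come from a Brg1 fl/fl line under the same tamoxifen or ethanol schedule and from wild-type cells. The wild-type part sets DMSO against ICRF-193, a topoisomerase II inhibitor, whose dose was 1 µM. Exposure lasted 1 h in 3 libraries of each kind and 24 h in 2 of each. Counts of peak presence below pool both times, as 5 DMSO and 5 ICRF-193 libraries.

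The ethanol lists held 110503 (replicate 1) and 83918 (replicate 2) peaks, and the tamoxifen lists held 88729 and 86960. Over all 18 lists of the series the number ran from 46431 to 129880. Both tamoxifen lists thus lay between the 2 control lists. Merging every overlap of 1 bp or more over these 4 lists gave 176971 regions on the mm9 build, of 377189 regions over the whole series. A region counted as present in a library that had 1 or more of its peaks there. The lists give positions and the authors' score per peak but no reads, so depth is unknown and counting error could not be estimated. No gene annotation of the mm9 build was used, so regions are named by coordinates, and neither the deletion at Actl6a nor ES cell marker loci were checked.

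Differences in list length and peak width were smaller than the spread between the control libraries. The mean was 87844.5 ± 1250.9 peaks with tamoxifen and 97210.5 ± 18798 with ethanol (SD, n = 2 each), a difference of -0.13 on the log2 scale (two-sided exact permutation p = 1, smallest possible 0.3333). The log2 change was -0.32 within replicate 1 and 0.051 within replicate 2, so the direction differed between the 2 same-numbered pairs. Peaks covered 33.7 and 23.0 Mb in the ethanol lists and 25.5 and 24.0 Mb in the tamoxifen lists. The median peak was 224 and 203 bp wide in ethanol and 210 and 205 bp wide in tamoxifen (difference of group means -6 bp, exact permutation p = 1). Broad peaks of 1 kb or more made up 1.98% and 0.876% of the ethanol lists and 1.39% and 0.867% of the tamoxifen lists. For each of these measures both tamoxifen libraries lay within the range of the ethanol libraries or at its lower edge. Without ethanol replicate 1 the change in list length turned to 0.066 and that in median width to 4.5 bp. With the lists cut to equal numbers of peaks the difference in median width was -24.5 bp.

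Individual peak lists shared only a part of their regions. Tamoxifen replicate 1 was as close to the controls as they were to each other, and tamoxifen replicate 2 was further from them. In ethanol replicate 1, 46.9% of the regions had no peak in ethanol replicate 2, 44.7% had none in tamoxifen replicate 1 and 50.8% had none in tamoxifen replicate 2. The Jaccard index over regions, which is the share of the regions of either list that both hold, was 44.1% between the ethanol libraries and 40.4% between the tamoxifen libraries. It was 44.8% for the pair numbered 1 across treatments, the highest of the 6 pairs, and 39.5% for the pair numbered 2. The pair with the lowest index, 38.5%, was ethanol replicate 1 with tamoxifen replicate 2.

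Strong regions were nearly always found again. Each library's regions were ordered by the score of their highest peak, expressed as a percentile of that list, and split into 5 classes of equal size. In the strongest class of ethanol replicate 2, 2.74% of the regions were absent from tamoxifen replicate 2, and in the reverse direction 2.71% were absent. These 2 lists are close in length. In the strongest class of ethanol replicate 1, 2.48% were absent from tamoxifen replicate 1, 2.56% from ethanol replicate 2 and 6.64% from tamoxifen replicate 2. The last value was the highest of the 12 directed pairs.

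**Figure D1:**
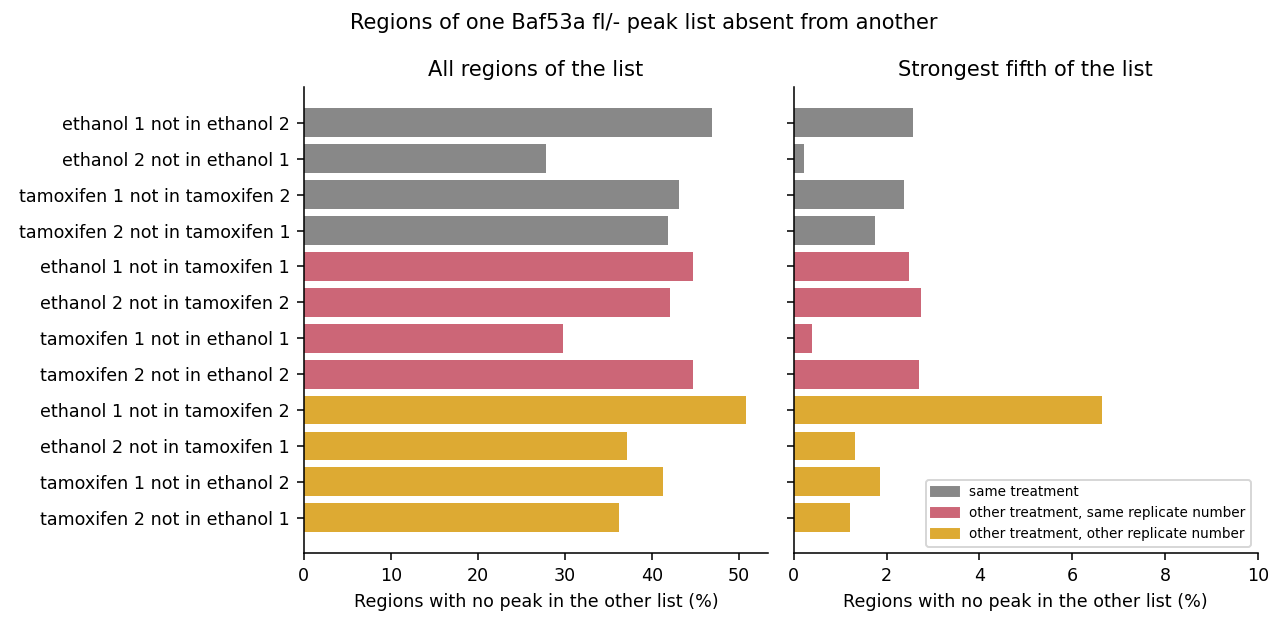
Percent of regions of one Baf53a fl/- peak list that had no peak in another, for all regions (left) and for the strongest of 5 score classes of the first list (right), with 1 bar per directed pair of libraries. Bars between treatments (red and yellow) mostly lie in the range of those between replicates of 1 treatment (grey, up to 46.9% on the left and 2.56% on the right), and the highest bars are those of ethanol replicate 1 against tamoxifen replicate 2 (50.8% and 6.64%).

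Of the 176971 regions, 39061 (22.1%) were found in every one of the 4 lists, and 93947 (53.1%) in a single list. Regions found in all 4 were wide, with a median merged width of 533 bp, and those of 1 library had a median of 146 bp. Ethanol replicate 1, the longest list, contributed 33018 of the regions of 1 library, and ethanol replicate 2, the shortest, contributed 17121. Tamoxifen replicates 1 and 2 contributed 19461 and 24347.

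A region was counted as lost when both ethanol libraries and neither tamoxifen library had a peak, and as gained in the reverse case. By this rule 6638 of the 57523 ethanol-shared regions were lost (11.5%). In the other direction 2725 of the 48594 tamoxifen-shared regions were gained (5.61%). Among regions held by exactly 1 library of each treatment, 7475 were found in both libraries numbered 1 alone, 4709 in ethanol 1 and tamoxifen 2 alone, 1938 in ethanol 2 and tamoxifen 1 alone and 1846 in both libraries numbered 2 alone. The 3 highest of these 6 counts, the lost regions among them, all include ethanol replicate 1, the longest list, so the number lost by itself does not set the treatment apart. Of the ethanol-shared regions, 39061 (67.9%) kept a peak in both tamoxifen libraries, and 11824 (20.6%) kept it in 1 of them. That library was tamoxifen replicate 1 for 7831 regions and replicate 2 for 3993. Presence of a peak was counted and not tested per region. The counts move with list length: when each list was reduced to its 83918 best-scoring peaks, 5275 regions were lost (9.81%) and 3241 gained (6.80%). With its 50000 best-scoring peaks the counts were 2988 (8.26%) and 2303 (6.85%). Losses still outnumbered gains in both settings, but by less than in the full lists.

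Lost and gained regions were mostly weak. Ethanol-shared regions were split into 5 equal classes by mean score percentile in the 2 ethanol lists. Of the 11504 regions of the weakest class 3962 were lost (34.4%), against 714 (6.21%) in the middle class, 145 (1.26%) in the class below the strongest and 5 of 11505 (0.0435%) in the strongest. Gained regions, classed by their tamoxifen scores, made up 19.1% of the weakest class (1859 regions), 2.05% of the middle class (199), 0.298% of the next (29) and none of the 9719 regions of the strongest. Loss was thus 1.26% or less above the middle class, and no gain was seen at all among the strongest regions. Only 50 lost regions scored above percentile 75 in both ethanol lists, and 13 gained regions did so in both tamoxifen lists. Above percentile 90 in both lists there was 1 lost region and 0 gained regions.

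**Figure D2:**
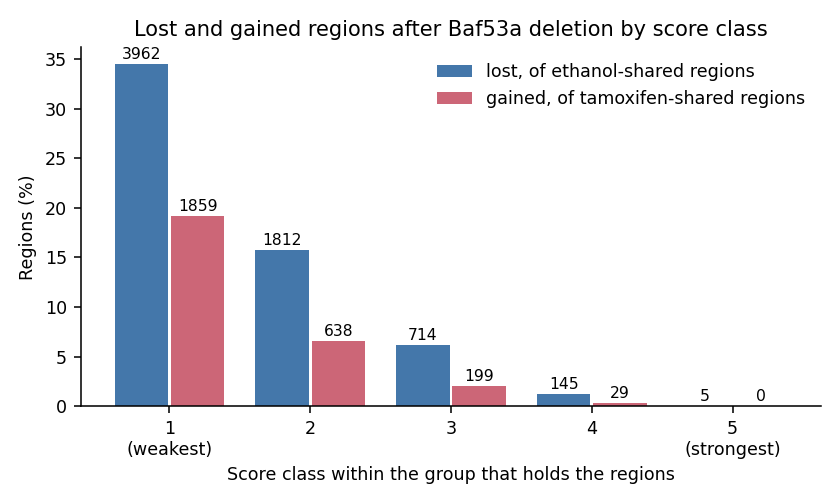
Percent of shared regions that were lost (blue, of ethanol-shared regions) or gained (red, of tamoxifen-shared regions) in 5 equal classes of mean score percentile, with the number of regions above each bar. Both fall from the weakest class (34.4% and 19.1%) to the strongest (5 lost, 0 gained), and lost exceeds gained in each class.

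Lost regions were narrow, and they were narrower than regions of the same score class that stayed. The median width under peaks in the ethanol lists was 183.5 bp for lost regions and 382 bp for regions in all 4 libraries, and gained regions had a median of 179 bp in the tamoxifen lists. In the middle score class the medians were 205.5 bp for lost and 323.5 bp for regions in all 4. Loss in that class fell from 15.0% of regions under 200 bp to 5.62% from 200 to 400 bp and 1.33% from 400 to 800 bp. No region of 800 bp or more was lost among 4102, and none was gained among 3321. Width rose with score class, from a median of 222 to 588.5 bp among regions in all 4 libraries, so the 2 features are not separate evidence.

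Loss varied less with the distance to other regions. Among ethanol-shared regions, 11.9% were lost where the nearest such region lay within 1 kb, 11.4% from 1 to 10 kb, 11.0% from 10 to 50 kb and 13.5% beyond 50 kb. In the middle score class the same shares were 4.59%, 5.90%, 6.23% and 10.1%, the last being 107 of 1057 isolated regions. For gained regions of the middle class the isolated ones also had the highest share, 3.19% (35 of 1097), against 1.77% to 2.07% in the other spacing classes. Of the lost regions, 1463 (22.0%) had another lost region as the next ethanol-shared neighbour on either side, where 11.5% of all ethanol-shared regions were lost. The longest run was 5 neighbouring regions. The 22.0% cannot be set directly against the 11.5%, since each region has a neighbour on both sides, and clustering was not tested.

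Lost regions were spread over all chromosomes. Leaving aside Y, which has 29 ethanol-shared regions, the share lost ran from 9.21% on chromosome 3 to 13.0% on X. The share gained ran from 3.99% on X to 7.48% on chromosome 14, so X had the most loss and the least gain. The X chromosome held 2.10% and 1.93% of the peaks of the ethanol lists and 1.95% and 1.79% of those of the tamoxifen lists. Tamoxifen minus ethanol was -0.154 and -0.141 percentage points within replicate numbers 1 and 2. The groups overlapped and the test missed its threshold (exact permutation p = 0.6667, smallest possible 0.3333). In the Brg1 line the same difference was -0.132 and -0.137 points. Of the 20 chromosomes without Y, chromosome 10 held a larger share of peaks in both tamoxifen lists than in either ethanol list (5.90% and 5.87% against 5.67% and 5.66%). Chromosomes 7, 11, 17 and 19 held a smaller one, and the other 15 overlapped.

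The strongest lost regions were short sites that cells of other lines also held. The first, chr14:45470462-45470578, scored at percentile 93.7 and 93.4 in ethanol replicates 1 and 2 with peaks of 117 and 111 bp, unusually narrow for that score. It held a peak in 3 of the 5 wild-type DMSO libraries and both Brg1 ethanol libraries, and in neither Brg1 tamoxifen library. The second, chr1:188753204-188753469, scored at 93.3 and 89.9. It held a peak in 2 DMSO libraries and both Brg1 ethanol libraries, and again in no Brg1 tamoxifen library. The third, chr13:40354111-40354491, scored at 93.7 and 87.6 with peaks of 381 and 350 bp. It was found in all 5 DMSO libraries, both Brg1 ethanol libraries and 4 of the 5 ICRF-193 libraries, and in neither Brg1 tamoxifen library. The region chr2:21966630-21966958, sixth in order (90.7 and 81.8), had that same state in every group of libraries. Both are sites that unperturbed cells of each line held and that had no peak in the 4 tamoxifen libraries of the 2 lines.

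Of the 10 lost regions with the highest scores, all were in both Brg1 ethanol libraries and 7 were in neither Brg1 tamoxifen library. Those 7 also include chr15:85766159-85766475 (percentiles 93.4 and 82.5, 4 DMSO libraries), chr1:155446039-155446229 (84.0 and 85.9, 2 DMSO libraries) and chr10:34391702-34391945 (90.7 and 79.1, 1 DMSO library and 0 ICRF-193 libraries). The other 3 kept a peak after Brg1 deletion in 1 or both libraries. The regions chr17:15366060-15366502 (91.0 and 86.7) and chr6:140469610-140469802 (85.1 and 87.1) kept a peak in 1 Brg1 tamoxifen library. The region chr4:146824227-146824394 (91.0 and 78.6) kept it in both. All 10 had mean percentiles between 84.8 and 93.5 and merged widths from 117 to 443 bp. Presence in both Brg1 ethanol libraries is usual at such scores. It was seen in 95.6% of all ethanol-shared regions of the class below the strongest and in 99.6% of the strongest class. Of the regions so held, 9.64% and 2.32% were in neither Brg1 tamoxifen library.

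The 10 gained regions with the highest scores were weaker than the lost ones, with mean percentiles from 79.0 to 87.1. The strongest was chr14:115257012-115257332, with percentile 82.3 in tamoxifen replicate 1 and 91.9 in replicate 2. It was present in both Brg1 ethanol libraries and in neither Brg1 tamoxifen library, and in 2 DMSO libraries. Next came chr13:35281044-35281462 (78.7 and 87.3), which 4 DMSO libraries and 0 libraries of the Brg1 line held, and chr7:92966604-92966874 (81.0 and 84.3), which 2 DMSO libraries held. The region chr1:146026702-146027036 (84.8 and 79.4) was in all 5 DMSO libraries, and chrX:39503609-39503750 (73.9 and 89.9) was in 4. 2 sites were absent from every DMSO library, chr8:29598399-29598657 (78.7 and 84.3) and chr9:3015235-3015361 (76.1 and 86.6). Of the 14 libraries outside the Baf53a line they had peaks in 1 and 3. The last in this group, chr7:20649542-20649842 (80.3 and 80.8), chr2:12402468-12402796 (69.5 and 89.4) and chr18:13173234-13173477 (78.7 and 79.4), held peaks in 9, 7 and 10 of those libraries. Of the 10, 8 thus held a peak in 1 or more wild-type control libraries.

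Wild-type cells, which took no part in the choice of these regions, held lost regions less often than regions that stayed. All 5 DMSO libraries had a peak in 12.1% of the lost regions and in 72.4% of the regions found in all 4 Baf53a libraries. No DMSO library had one in 16.1% (1071 regions) and 0.817%. The gap remained within score classes, at 7.37% against 25.8% in the weakest class, 24.8% against 63.6% in the middle class and 40.0% against 82.7% in the class below the strongest. Gained regions were rarer still in wild-type cells: 4.77% had a peak in all 5 DMSO libraries and 26.3% (716) in none. The wild-type cells are another line: their DMSO lists had 0 peaks on Y and 3.74% to 4.13% of peaks on X, against 40 to 46 peaks on Y and 1.79% to 2.10% on X in the Baf53a lists. The part of that difference in these shares was not tested. Lost and gained regions were also chosen for peaks in 2 of the 4 Baf53a lists, and the regions that stayed for peaks in all 4. The part of that choice was not tested either.

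Regions that unperturbed cells held throughout were seldom lost. The 5 DMSO and the 2 Brg1 ethanol libraries all held 30586 of the ethanol-shared regions, of which 543 were lost after Baf53a deletion (1.78%), against 11.5% of all ethanol-shared regions. Of those 543 regions, 267 (49.2%) had no peak in either Brg1 tamoxifen library and 81 (14.9%) had one in both. Of the 27312 such regions with a peak in all 4 Baf53a libraries, 1476 (5.40%) had none in either Brg1 tamoxifen library and 75.2% had one in both. The 543 lost regions were weaker, with a median ethanol percentile of 53.1. It was 83.2 for those 27312 regions and 81.1 for all 30586. These shares were not matched for score, and the part of score was not tested. In the reverse direction, 28462 tamoxifen-shared regions lay in all 7 of those control libraries and 55 of them were gained (0.193%). Of those 55 regions, 20 (36.4%) had no peak in either Brg1 tamoxifen library and 14 (25.5%) had one in both. A further 550 gained regions (20.2%) lay in none of the 7 control libraries, and 7 of those had a peak in both Brg1 tamoxifen libraries.

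The Brg1 line gives a second BAF deletion with its own controls. Of the 6638 Baf53a-lost regions, 2065 (31.1%) were in both Brg1 ethanol libraries, and 1163 of these (56.3%) were in neither Brg1 tamoxifen library. Among the regions in all 4 Baf53a libraries, 34682 (88.8%) were in both Brg1 ethanol libraries and 3087 of these (8.90%) were in neither Brg1 tamoxifen library. By score class the share was 57.4%, 56.4%, 52.7% and 59.1% for Baf53a-lost regions from the weakest class to the class below the strongest. For regions in all 4 libraries it was 24.9%, 17.9%, 12.5% and 7.40%. The same regions were also counted as a share of the whole class, including regions not in both Brg1 ethanol libraries. That share was 12.2%, 22.4%, 28.9% and 44.8% for Baf53a-lost regions. For regions in all 4 libraries it was 13.5%, 13.1%, 11.0% and 7.16%. The weakest class, with 3962 of the 6638 lost regions, thus showed no excess among lost regions. Of the gained regions, 333 were in both Brg1 ethanol libraries and 150 of these (45.0%) were in neither Brg1 tamoxifen library. A high share was thus not particular to Baf53a-lost regions. The 1163 regions lost in both lines were 17.5% of the Baf53a-lost regions and 9.31% of the 12493 regions, among those merged from the Baf53a lists, that were lost in the Brg1 line. Of all 57523 ethanol-shared regions, 6517 (11.3%) were lost in the Brg1 line. That is 15.0% of the 43423 ethanol-shared regions that were in both Brg1 ethanol libraries. The 2 comparisons share no library. The Brg1 tamoxifen lists are short (84763 and 46431 peaks), lost regions are narrow, and the part of either in this overlap was not tested. Another 219 Baf53a-lost regions had a peak in all 4 Brg1 libraries.

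**Figure D3:**
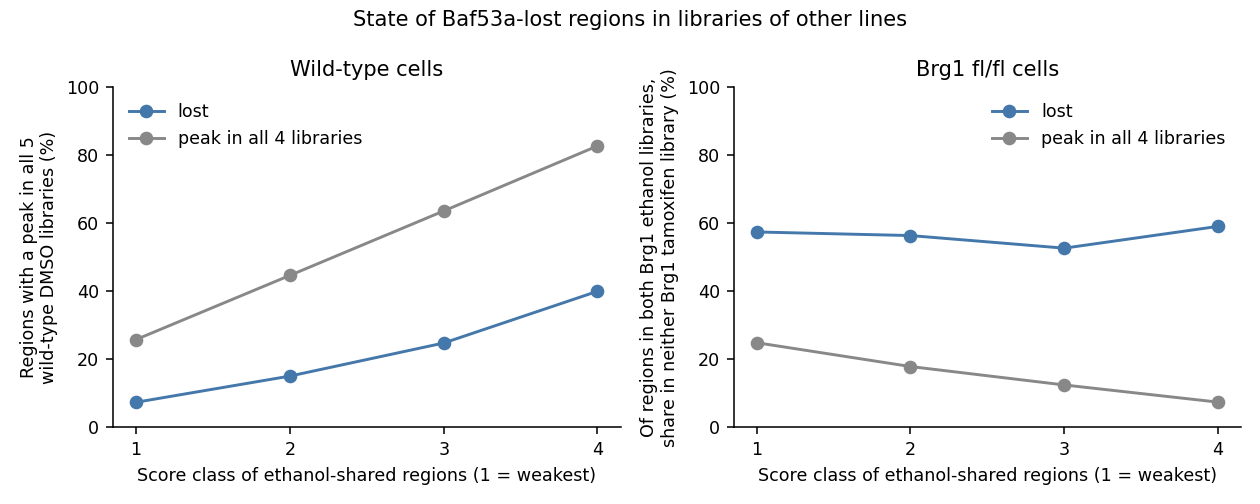
Left, percent of Baf53a-lost regions (blue) and of regions with a peak in all 4 Baf53a libraries (grey) that had a peak in all 5 wild-type DMSO libraries, by score class of the ethanol lists. Right, percent of those in both Brg1 ethanol libraries that were in neither Brg1 tamoxifen library. The strongest class, with 5 lost regions, is not drawn; lost regions lie below the others on the left and above them on the right in each class.

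In regions with a peak in all 4 libraries, no site passed the test for a change in width. The median width was 430 and 337 bp in the ethanol libraries and 363 and 338 bp in the tamoxifen libraries, so ethanol replicate 1 stood apart. After each library was centred on its median, limma called 0 of the 39061 regions wider (0%) and 0 narrower (0%) at an adjusted p under 0.05, with 2231 regions (5.71%) at an unadjusted p under 0.05. The middle 80% of regions lay between -0.56 and 0.56 on the log2 scale, with a median SE of 0.40. The 429 regions of 1 kb or more in every list had median widths of 1301 and 1184 bp in ethanol and 1232 and 1187 bp in tamoxifen. Of these 429 broad sites, 425 were in all 5 DMSO libraries and 427 in both Brg1 tamoxifen libraries. Splitting of peaks was also rare in both directions. Of 34433 regions with 1 peak in both ethanol libraries, 351 (1.02%) held 2 or more in both tamoxifen libraries, and the reverse was seen in 222 of 34191 (0.649%).

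The regions nearest to a width change, chosen by smallest p, had separate groups but did not pass the adjusted test. Separate groups were common. In uncentred widths, both tamoxifen values lay above both ethanol values in 4207 of the 39061 regions and below both in 8621. At chr7:117333449-117334058 peaks covered 110 and 104 bp in the ethanol libraries and 484 and 610 bp in the tamoxifen libraries (log2 change 2.46, SE 0.44, limma adjusted p = 0.8627). At chr2:111877946-111878828 they covered 254 and 149 bp in ethanol and 687 and 799 bp in tamoxifen (2.05, SE 0.37, limma adjusted p = 0.8627). In both, each tamoxifen value was over 2-fold above each ethanol value. The smallest p in the narrower direction was at chr8:124956464-124957389, where 900 and 747 bp became 235 and 214 bp (-1.75, SE 0.32, limma adjusted p = 0.8627). At chr11:82743690-82744395, 706 and 695 bp became 151 and 175 bp (-1.99, SE 0.39), and at chr18:76833853-76834538, 686 and 609 bp became 168 and 115 bp (-2.10, SE 0.42). These sites kept 1 peak in every library, so none of the 3 narrowed by splitting.

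Without tamoxifen replicate 1, 43 regions were called wider and 254 narrower, and without tamoxifen replicate 2 the counts were 2 and 28. Each of these fits estimates the spread from the ethanol pair and assumes that the lone tamoxifen library varies like it. Without ethanol replicate 1 or 2, no region was called.

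The order of the same 39061 regions by score was about as similar between treatments as between replicates. Each library's scores were ranked over these regions alone and expressed as percentiles, which describes the order within a library and carries no test. Spearman's rho over regions was 0.77 between the ethanol libraries, 0.74 between the tamoxifen libraries, 0.78 for the pair numbered 1 across treatments and 0.70 for the pair numbered 2. For the crossed pairs it was 0.69 and 0.74. The 3 pairs with tamoxifen replicate 2 include the lowest 2 values. Both tamoxifen ranks lay above both ethanol ranks in 7620 regions (19.5%) and below both in 7003 (17.9%), and by 25 points or more on average in 2103 (5.38%) and 2239 (5.73%). Of 5 classes by mean rank, the strongest had 1661 regions higher and 1278 lower and the weakest 1517 and 1275, and the classes between them were closer to balance.

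The 5 largest rises in rank were in regions with merged widths from 290 to 704 bp. The 5 largest falls were in narrower regions, from 242 to 384 bp, where the median of all 39061 was 533 bp. At chr14:46354352-46354916 the ranks were 3.81 and 19.4 in the ethanol libraries and 87.7 and 85.0 in the tamoxifen libraries, and the width under peaks went from 290 and 152 bp to 497 and 565 bp. At chr3:15055471-15056174 ranks of 0.735 and 7.37 became 74.1 and 72.8, and at chr16:38443723-38444362 ranks of 17.4 and 4.20 became 74.3 and 77.0. All 3 held peaks in 4 or 5 of the DMSO libraries. The rises at chr11:33859124-33859552 (mean rank 0.865 to 65.7) and chr1:52994834-52995123 (4.65 to 69.4) were similar in size, and the latter held a peak in 1 DMSO library.

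In the other direction, chr14:102868560-102868886 ranked at 85.3 and 76.8 with ethanol and at 15.3 and 4.35 with tamoxifen, and its width went from 247 and 310 bp to 146 and 116 bp. It was in all 5 DMSO and both Brg1 ethanol libraries and in neither Brg1 tamoxifen library. At chr2:59914213-59914454 ranks of 74.1 and 80.3 became 10.2 and 7.18, and at chr7:141953460-141953843 ranks of 88.3 and 91.1 became 44.3 and 4.35. At chr16:32666371-32666742 mean ranks went from 68.0 to 2.96, and at chr1:171764645-171765027 from 65.7 to 2.06. These last 2 regions were also in both Brg1 ethanol libraries and in neither Brg1 tamoxifen library. Each of the 5 was thus a site that both Brg1 ethanol libraries held, as were 88.8% of the 39061 regions. After Brg1 deletion 3 of the 5 had no peak, against 8.90% of the regions so held. The 5 were chosen for a fall to low tamoxifen ranks. In the weakest tamoxifen score class of regions in all 4 libraries that share was 24.7%, and the part of score or width was not tested. Of the 5 regions that rose, chr14:46354352-46354916 was in 1 Brg1 ethanol library and the others were in both. Among those, chr1:52994834-52995123 was in neither Brg1 tamoxifen library.

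**Figure D4:**
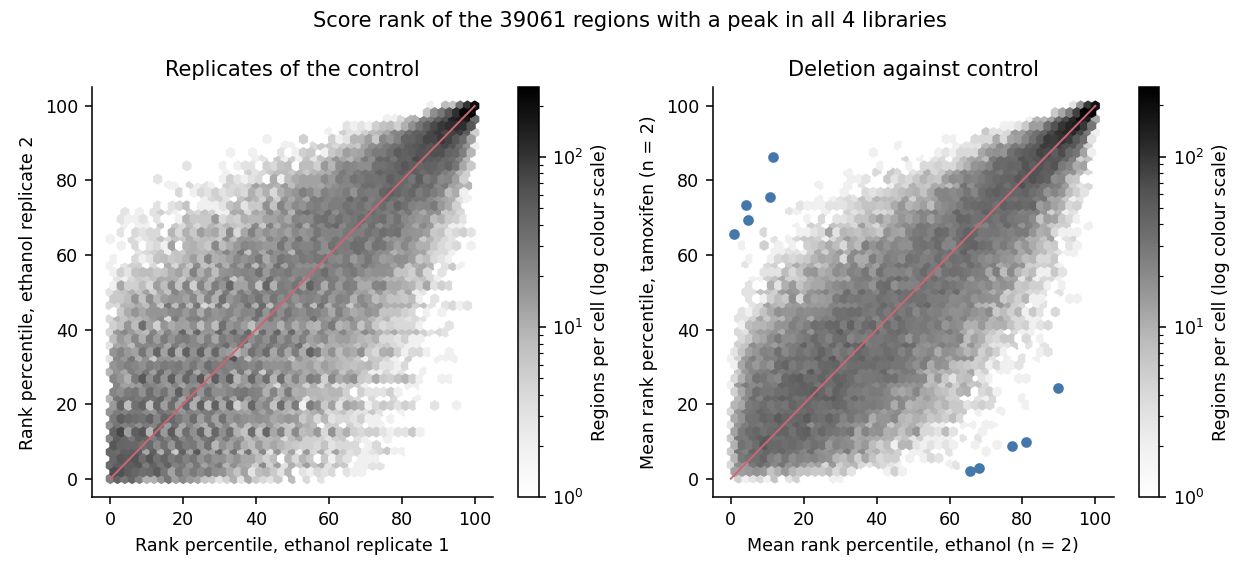
Rank percentile of the score among the 39061 regions with a peak in all 4 libraries, for ethanol replicate 1 against replicate 2 (left) and for the group means of ethanol against tamoxifen (right), with shade giving regions per cell on a log scale. The red line marks equal rank and the blue points are the 5 largest rises and 5 largest falls; the strongest regions lie closest to the line in both panels.

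Over whole megabases, no bin passed the test for a change after Baf53a deletion. The share of a list's peaks in each 1 Mb bin was fitted with limma over all 18 libraries. Among the 2235 bins averaging at least 10 peaks, limma called 0 higher (0%) and 0 lower (0%), with 110 (4.92%) at an unadjusted p under 0.05. The change lay between -0.28 and 0.27 on the log2 scale in the middle 80% of bins, with a median SE of 0.18, and 2 bins changed by 2-fold or more. For Brg1 deletion the middle 80% ran from -0.66 to 0.31, and 83 bins passed 2-fold.

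The bin with the smallest p was chr10:28000001-29000000, with 38 and 27 peaks in the ethanol lists and 49 in each tamoxifen list, a log2 change of 0.74 (SE 0.18, limma adjusted p = 0.4654). In chr3:18000001-19000000 there were 24 and 20 peaks with ethanol and 32 and 38 with tamoxifen (0.79, SE 0.21), and in chr1:16000001-17000000 there were 33 and 28 against 44 and 47 (0.71, SE 0.19). The groups did not overlap in these 3 bins, nor in those that follow, although the tamoxifen lists were not the longest. The bins were chosen by smallest p, so this separation is not further evidence. In chr10:107000001-108000000 the lists held 76 and 55 peaks with ethanol and 85 and 79 with tamoxifen (0.47, SE 0.14), and in chr9:71000001-72000000 they held 40 and 30 against 43 and 47 (0.50, SE 0.15). In a fit of the 4 Baf53a libraries alone the first 4 of these 5 bins were called, with limma adjusted p of 0.01228, 0.04922, 0.03133 and 0.04922 in the order given. That fit has 2 residual degrees of freedom, and limma there gave each bin the spread fitted over all bins in place of its own. No other alternative called these bins.

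The bins nearest to a fall included a pair close together on chromosome 19. In chr19:57000001-58000000 there were 70 and 51 peaks with ethanol and 38 and 41 with tamoxifen, a log2 change of -0.46 (SE 0.14, limma adjusted p = 0.7764), and in chr19:55000001-56000000 there were 67 and 46 against 39 and 37 (-0.41, SE 0.14). In chr5:132000001-133000000 the lists held 49 and 26 peaks against 21 and 18 (-0.73, SE 0.22), and in chr13:63000001-64000000 50 and 42 against 32 and 24 (-0.58, SE 0.18). The fifth, chr3:94000001-95000000, held 84 and 65 peaks with ethanol and 46 and 53 with tamoxifen (-0.44, SE 0.14). In each of these bins both tamoxifen lists held fewer peaks than either ethanol list. These bins too were chosen by smallest p, and the share of all bins with groups apart was not counted.

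That bin on chromosome 3 also came nearest to a difference between the deletions. In the Brg1 line it held 61 and 62 peaks with ethanol and 71 and 48 with tamoxifen, which relative to the length of the lists is a log2 change of 0.53 (limma adjusted p = 0.02986). The Baf53a change minus the Brg1 change was -0.98 (SE 0.20, limma adjusted p = 0.05568). Over all 2235 bins this difference was called higher in 0 (0%) and lower in 0 (0%), with 243 (10.9%) at an unadjusted p under 0.05. The chromosome 3 bin passed with equal numbers of peaks (-0.84, limma adjusted p = 0.04402), with quantile normalization (-0.84, adjusted p = 0.03454), with a pseudocount of 1 (-0.97, adjusted p = 0.04998) and with a replicate block (-0.98, adjusted p = 0.003024). It did not pass with bins averaging at least 5 peaks (-0.98, adjusted p = 0.07624), with 50000 peaks per list (-0.80, adjusted p = 0.101) or without any 1 of the 4 Baf53a libraries (-1.09 to -0.86, adjusted p from 0.06621 to 0.4897).

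Medians of sparse and dense megabases lay close to 0 after Baf53a deletion and further apart after Brg1 deletion. With bins in 5 classes of 447 by mean number of peaks, the median log2 change after Baf53a deletion was -0.015 in the sparsest class, 0.0028 in the middle and -0.029 in the densest. After Brg1 deletion it was -0.44, -0.048 and 0.15. Within replicate numbers, the sparsest class changed by -0.13 and 0.093 after Baf53a deletion and by -0.56 and -0.23 after Brg1 deletion. The densest class changed by 0.031 and -0.068 after Baf53a deletion and by 0.23 and 0.068 after Brg1 deletion. For Baf53a the direction differed between the same-numbered pairs, with the sparse bins lower where the tamoxifen list was the shorter (replicate 1) and higher where it was the longer (replicate 2). In the Brg1 line both tamoxifen lists were the shorter. With each list reduced to 50000 peaks, a setting added after seeing the data that kept 36 of the sparsest bins, the sparsest class changed by 0 and 0.11 for Baf53a and by -0.46 and -0.27 for Brg1. The part of list length in this pattern was otherwise not tested, nor was the difference between the lines by class.

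**Figure D5:**
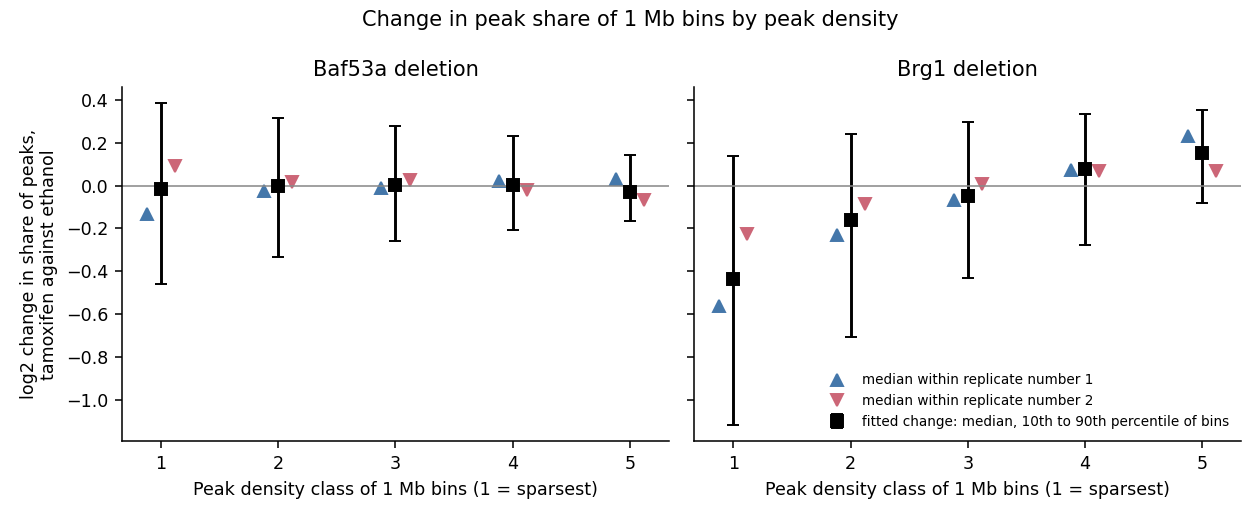
Log2 change in the share of peaks per 1 Mb bin, tamoxifen against ethanol, in 5 peak density classes of 447 bins, for Baf53a deletion (left) and Brg1 deletion (right). Squares and bars are the median and the 10th to 90th percentile of the fitted changes, and triangles are medians within replicate numbers 1 and 2; Baf53a medians lie near 0 in every class, and Brg1 medians run from -0.44 to 0.15.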

How the data were processed

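The authors deposited a separate list of peaks for every library. The submitters' processing notes name mm9 as build and list Bowtie 0.12.9, MACS2 and edgeR 3.12.1 without saying what each did. How reads were shifted and which thresholds applied is not given in the sources used here. Each peak's score is the deposited value of the authors, without a stated unit, and served for ranking and filtering inside 1 list. The other deposited values are start and end positions, printed counted from 1.

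Peaks were merged in Python 3.11.15 (pandas 2.3.3, numpy 2.4.6, scipy 1.17.1), and the merge was checked against bedtools 2.31.1. Width was tested as log2 bp under peaks, centred per library, with limma 3.58.1 in R 4.3.3 over 39061 regions and 4 libraries. Peaks per 1 Mb bin were tested as log2((peaks + 0.5) / list total × 1000) with limma over all 18 libraries, 1 term per group, and Benjamini-Hochberg adjustment over all regions or bins. Both tests were checked on simulated data. Named items are the 10 regions per direction of highest mean percentile among those lost or gained, and the 5 per direction with the smallest p (bins, widths) or the largest rank shift with groups apart. These comparisons and rules were chosen with earlier results of these data known.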

Additional observations from a re-analysis of the deposited data

How the results depend on the processing

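Lost regions numbered 2988 with the 50000 top-scoring peaks per list, against 6638. Other thresholds and merging rules, including a minimum cover of 20% and a gap of 100 bp, left lost and gained counts within 1.5 times. Leaving out 1 library moved lost regions to between 10648 and 40032 and gained regions to between 4000 and 27445, because a group of 1 library makes its rule looser. Leaving out 1 library moved the log2 change in list length to between -0.33 and 0.066 and that in median width to between -16.5 and 4.5 bp, with the sign turning without ethanol replicate 1. The width difference was -24.5 bp with equal numbers of peaks and -31 bp with 50000 per list. Leave-one-out fits called 0 to 43 regions wider and 0 to 254 narrower. The only other fit to call a 1 Mb bin for Baf53a was that of the 4 libraries alone (4 higher, 0 lower). The bin chr10:107000001-108000000 turned to -0.0051 with 50000 peaks per list. Other alternatives gave all 10 named bins their direction, and all named widths that could be fitted theirs; 12 values, all of widths, could not be had because the region dropped out. For the difference from Brg1, equal numbers called 1 bin higher and 1 lower, 50000 peaks 4 and 0, quantile normalization 0 and 2, and a pseudocount of 1 called 0 and 1. The cause was not tested.

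Same-numbered libraries hardly deviated together (correlation of deviations 0.025 over bins and 0.064 over widths), and no label says that a number marks a shared passage. With a replicate block the log2 change in list length was -0.13, 0 bins and 0 widths were called for Baf53a, and the difference from Brg1 was called higher in 9 bins and lower in 1. Depth is unknown, so a missing peak may be a site below the calling threshold of a library.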
